A study of Homo sapiens with 6 samples.

Results

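Transcripts of the cytosolic heat shock proteins and of the BAG family were compared between HEK293 Tet-On cells stably carrying a myocilin-expressing vector and HEK293 Tet-On cells stably carrying the control vector, with 3 Affymetrix HG-U133 Plus 2.0 arrays for each line. The members were 35 listed genes of the HSP70, HSP90, small HSP, DNAJ, BAG, co-chaperone and heat shock factor classes. They were chosen by name, with earlier results of these data known. Every probe set that the platform annotation assigns to exactly 1 of these genes was taken, which gave 67 of the 41751 probe sets of the table and 30 of 18338 measured genes. The genes HSPA1A, HSPA1B, HSPA8, AHSA1 and HSF2 had no probe set assigned to them alone. The label's word cytosolic does not hold for HSPD1 and HSPE1, which encode the mitochondrial chaperonin and are described apart. HEK293 is an established cell line from human embryonic kidney, and the Tet-On system turns a transgene on when doxycycline is added. The protocol describes doxycycline at 0.2 or 1 µg/ml for 48 h and hygromycin B and G418 in the medium of both lines. The dose behind each array is not given, and a description that names the drug stands only on the myocilin samples. Each line is a single stable line, nothing in the labels says that its arrays came from separate cultures, and p-values then measure only the spread between these arrays, which may be technical.

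Values are the authors' centred values, read as log2. They give differences between arrays and not levels, so markers of the HEK293 line could not be checked for presence. Across all probe sets, correlations were 0.513 to 0.608 among myocilin arrays, 0.409 to 0.464 among control arrays and -0.244 to -0.00516 between the lines. These are correlations of centred values, from which levels are absent, so values below 0 do not mean opposed expression profiles. MYOC, the inserted gene, averaged 0.22 ± 0.02 on the myocilin arrays and -7.77 ± 0.92 on the control arrays (SD, n = 3 each), which is the direction of the labels. The within-line SD of the chaperone probe sets had a median of 0.077 in the myocilin line and 0.086 in the control line, against 0.0896 and 0.096 over all probe sets.

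Chaperones of these classes hold unfolded proteins and help them to fold. HSP70 proteins bind and release a client in a cycle of ATP hydrolysis, which DNAJ proteins stimulate, while HSP110 and BAG proteins promote exchange of the nucleotide and so release of the client. HSP90 receives clients from HSP70 through co-chaperones, and small HSPs hold clients without ATP. Under stress the factor HSF1 trimerises and binds heat shock elements, inverted repeats of the unit GAA, before many of these genes.

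At least 1 probe set rose in the myocilin line for HSPA1L, HSPH1, HSPB8, BAG2, BAG3, STIP1 and HSF1, and at least 1 fell for DNAJB6 and BAG1. Of the 67 probe sets, 7 rose and 3 fell and 57 did not pass an adjusted p of 0.05 (limma, Benjamini-Hochberg over all probe sets). These are 14.9% of the chaperone probe sets, against 11% of all probe sets called (5.46% higher and 5.56% lower). Averaged to 1 value per gene, 9 genes rose and 2 fell of 30, or 36.7% against 15.6% of all genes (8.28% higher and 7.35% lower). HSPA4L, HSP90AB1 and DNAJA2 were added to the rises and HSF1 was absent from them. The members were chosen with earlier results of these data known, so these shares are no independent test. The count of falling probe sets was 1 without myocilin array 1 or myocilin array 3. The count of rising genes was 4 without myocilin array 1, 3 without myocilin array 2 and 5 without control array 1. Over all genes, the count of rises also fell in these settings, from 1519 to 833, 964 and 1125.

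The differences were small. The median over the 30 genes was 0.12 on the log2 scale, against 0.02 over all genes, and the single genes ran from -0.44 for DNAJB6 to 0.78 for BAG3. The difference lay above 0 for 22 of the 30 genes, or 73.3%, against 55.3% of all genes. Each comparison with all genes or probe sets has the same limit, a list chosen with earlier results known. The lines did not overlap for 14 genes that were higher and 4 that were lower in the myocilin line, or 60% of the genes against 34.9% of all genes. The direction was not counted over all genes. For probe sets the lines did not overlap in 34 of 67 cases, 26 with the myocilin line higher and 8 lower. That is 50.7%, against 30.4% of all probe sets (15.5% with the myocilin line higher and 14.8% lower). By array, the median over the 30 genes was 0.0081, 0.062 and 0.0092 in the myocilin line, against -0.057, -0.068 and -0.026 in the control line, with every myocilin array above every control array.

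**Figure D1:**
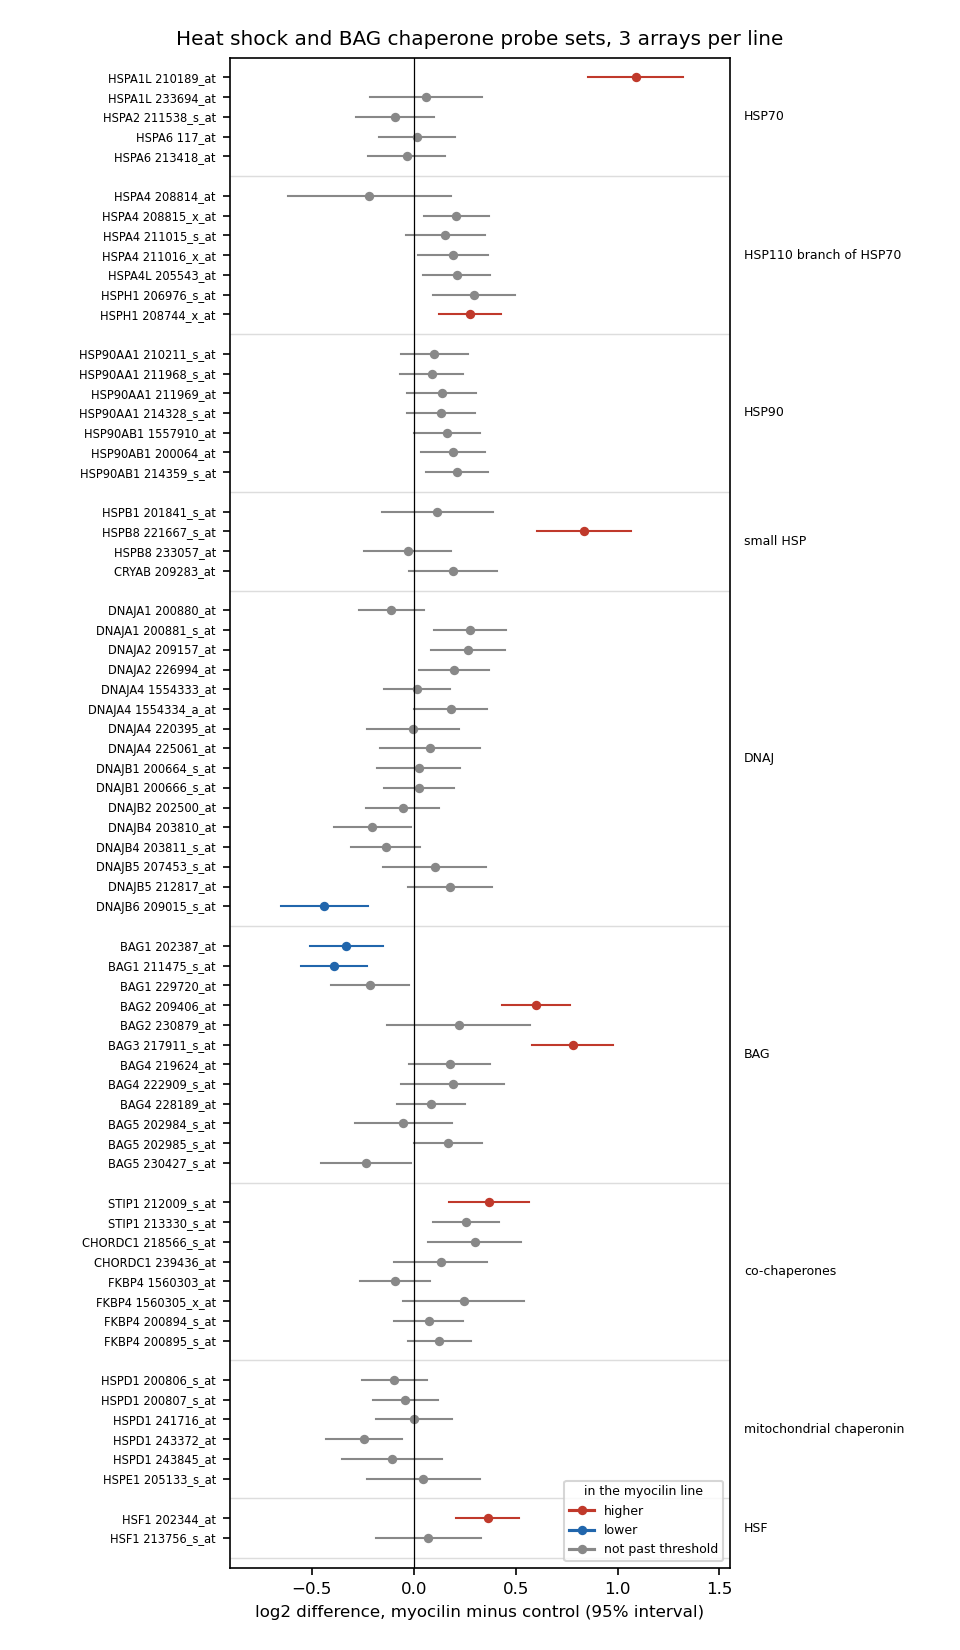
Log2 difference (myocilin minus control) of each of the 67 chaperone probe sets with its 95% interval from limma, 3 arrays per line, grouped by class; red marks probe sets past the threshold and higher, blue lower, grey not past it. HSPA1L, HSPB8, BAG3 and BAG2 each have a probe set beyond 0.5, while all 7 HSP90 probe sets lie between 0.09 and 0.21.

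In the HSP70 class, HSPA1L was the only gene with a call. It encodes an HSP70 that is abundant in testis and lies beside HSPA1A and HSPA1B in the major histocompatibility region of chromosome 6. Its probe set 210189_at read 1.03, 0.87 and 0.89 on the myocilin arrays, against -0.39, -0.10 and 0.0059 on the control arrays. The lines stood apart, and the control arrays spread more (SD 0.20) than the myocilin arrays (SD 0.087). The difference was 1.09 ± 0.10 (log2, SE), or 2.13-fold (limma adjusted p = 0.00035), and 0.22% of all probe sets differed by more in either direction. The other HSPA1L probe set, 233694_at, read 0.18, -0.08 and 0.19 in the myocilin line, against 0.28, -0.19 and 0.01 in the control line. Its groups overlapped and its difference was 0.06 ± 0.12 (log2, SE, adjusted p = 0.805); whether the probe sets differ from each other was not tested. HSPA1A, HSPA1B and HSPA1L are closely similar in sequence, and the annotation assigns 1 probe set to all of them and 2 jointly to HSPA1A and HSPA1B, so the identity of the transcript behind a rise is uncertain within this trio. These 3 joint probe sets, which are not among the 67, were higher in the myocilin line by 0.50 to 0.89.

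HSPA6 and HSPA2 did not pass the threshold. HSPA6, an HSP70 that is nearly silent without stress and strongly induced by heat, gave differences of 0.02 ± 0.08 and -0.04 ± 0.09 from its 2 probe sets (log2, SE). The difference of its gene mean had a 95% interval of -0.16 to 0.14. HSPA2, a testis HSP70, gave -0.09 ± 0.09 (log2, SE) with overlapping lines. For HSPA8, the constitutive HSP70, 4 probe sets are annotated together with the small nucleolar RNAs SNORD14C and SNORD14D, which lie in its introns. They read 0.14 to 0.27 higher in the myocilin line and none passed the threshold, the nearest at an adjusted p of 0.0508.

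Heat shock elements were looked for in the 250 bases before each annotated start, from RefSeq sequence of GRCh38.p14, because many members share this control element. Matched were GAANNTTC and TTCNNGAA, where N is any base and both strands are covered since each is its own reverse complement, and the longer GAANNTTCNNGAA or its reverse complement TTCNNGAANNTTC, each of which contains both shorter forms. A match describes letters and not a bound site. Imperfect elements and elements outside the window were not looked for, so the lack of a match does not show that a gene has no element. Of the 30 genes, 26 were in the promoter table, the others being BAG4, CRYAB, FKBP4 and HSF1. A shorter element stood before at least 1 start of 15 of the 26 genes (57.7%), against 14% of all genes in the table, and the longer one before 6 (23.1%), against 0.557%. Counted by start, the shorter element stood before 38.5% of 39 starts of measured members, against 11.6% of all 35116 starts. The list was built by name from heat shock and BAG genes, so such an excess is no result of these arrays. Among the genes called at gene level, 5 of 9 rising and 1 of 2 falling genes held the shorter element, as did 9 of 15 genes that did not pass. The longer element was found for HSP90AB1 among the rises, for DNAJB6 among the falls, and for CHORDC1, HSPA6, HSP90AA1 and HSPD1 among genes that did not pass.

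The windows of HSPA1L, which had the largest rise of a single probe set, and of HSPA6, which did not pass the threshold, are shown with the letters of each element's GAA or TTC units in capitals. HSPA1L holds 1 short element, at 161 to 154 bases before its start, and its window overlaps that of HSPA1A on the opposite strand. HSPA6 holds 3 short elements, and those nearest the start join into a longer one at 74 to 62 bases before it.
HSPA1L (chr6:31815284-31815533, minus strand): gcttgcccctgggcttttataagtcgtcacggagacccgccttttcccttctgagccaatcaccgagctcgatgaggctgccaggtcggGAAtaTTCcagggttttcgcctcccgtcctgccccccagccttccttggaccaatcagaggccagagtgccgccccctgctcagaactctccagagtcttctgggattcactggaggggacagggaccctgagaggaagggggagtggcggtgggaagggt
HSPA6 (chr1:161524290-161524539, plus strand): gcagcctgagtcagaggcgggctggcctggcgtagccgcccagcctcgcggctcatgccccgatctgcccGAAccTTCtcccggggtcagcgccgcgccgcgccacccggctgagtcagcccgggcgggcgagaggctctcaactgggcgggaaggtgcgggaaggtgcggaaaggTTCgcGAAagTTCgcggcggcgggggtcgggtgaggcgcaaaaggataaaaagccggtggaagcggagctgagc

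Of the HSP110 genes, whose products act as nucleotide exchange factors of HSP70, HSPH1 and HSPA4L rose slightly and HSPA4 did not pass. HSPH1, itself a heat-induced gene, read -0.017, 0 and -0.020 on the myocilin arrays, against -0.35, -0.27 and -0.26 on the control arrays at probe set 208744_x_at. The lines did not overlap, and the difference was 0.28 ± 0.07 (log2, SE, adjusted p = 0.0292). Its other probe set, 206976_s_at, gave 0.29 ± 0.09 with an adjusted p of 0.0666, and the gene mean gave 0.29 ± 0.06 (adjusted p = 0.0169). The probe set call was lost with any 1 array left out and with trend and robust fitting (adjusted p up to 0.09). The gene call was lost without myocilin array 1 or 2 or control array 1 or 2 (adjusted p up to 0.0634), and it passed in 7 of 12 alternatives. Every count of alternatives in this report includes median centring, which repeats the main fit because the median is 0 on every array. HSPA4L, with a single probe set, read 0.09, 0.14 and 0.01 in the myocilin line, against -0.17, -0.18 and -0.06 in the control line. It passed only in the gene fit and barely (0.21 ± 0.06, log2, SE, adjusted p = 0.0499) and was lost with any 1 array left out (adjusted p up to 0.146). The gene fit of HSPA4L passed in 4 of 13 alternatives. The probe sets of HSPA4 differed in sign, 0.15 to 0.21 for 3 of them and -0.22 ± 0.18 for 208814_at, where control array 2 read 0.52 and the other control arrays -0.30 and -0.07.

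HSP90AB1 rose slightly in the gene fit and HSP90AA1 did not pass, with all 7 HSP90 probe sets between 0.09 and 0.21. HSP90AB1, the constitutive HSP90, averaged 0.16, 0.22 and 0.15 on the myocilin arrays, against -0.06, 0.0018 and 0.02 on the control arrays over its 3 probe sets. The myocilin arrays were all above the control arrays, with a difference of 0.19 ± 0.06 (log2, SE, adjusted p = 0.0479). No single probe set passed (0.16 to 0.21), and the gene call was lost with any 1 array left out (adjusted p up to 0.137). The gene fit of HSP90AB1 passed in 2 of 13 alternatives (adjusted p up to 0.492), and median centring, a repeat of the main fit, is among the 2. HSP90AA1, the inducible HSP90, gave 0.11 ± 0.06 over 4 probe sets, which ranged from 0.09 to 0.14, and did not pass (adjusted p = 0.235). Before the third start of HSP90AB1 the longer element occurs at 165 to 153 and at 112 to 100 bases, in a window shown for its paired elements.
HSP90AB1 (chr6:44247693-44247942, plus strand): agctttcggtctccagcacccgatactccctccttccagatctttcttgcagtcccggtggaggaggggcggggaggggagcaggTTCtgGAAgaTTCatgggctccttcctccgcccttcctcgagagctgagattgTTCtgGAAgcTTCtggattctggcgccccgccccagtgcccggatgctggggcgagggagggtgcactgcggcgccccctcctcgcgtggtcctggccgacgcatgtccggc

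Among the small HSPs, HSPB8 rose on 1 of its 2 probe sets. HSPB8 is the partner of BAG3 in a complex that directs misfolded proteins to autophagy. Probe set 221667_s_at read 0.38, 0.0053 and 0 on the myocilin arrays, against -0.71, -0.68 and -0.73 on the control arrays. All control arrays were low and close together, and myocilin array 1 stood above the other 2 myocilin arrays. The difference was 0.83 ± 0.10 (log2, SE), or 1.78-fold (adjusted p = 0.0013), and it passed in all 10 alternatives that tested it (0.71 to 0.90). Probe set 233057_at gave -0.03 ± 0.09 (log2, SE, adjusted p = 0.879) with overlapping lines, so the gene mean of 0.40 ± 0.08 rests on the first probe set alone. HSPB1, the classical heat-induced HSP27, read 0.39, 0.17 and 0.32 in the myocilin line, against 0.44, -0.07 and 0.16 in the control line. CRYAB, the gene of alpha B-crystallin, read 0, 0.18 and 0.29 in the myocilin line, against 0.01, 0.06 and -0.18 in the control line. Both genes overlapped between lines, and neither passed (0.12 ± 0.12 and 0.19 ± 0.10, log2, SE). The window of HSPB8 holds 1 short element, at 88 to 81 bases before the start.
HSPB8 (chr12:119178681-119178930, plus strand): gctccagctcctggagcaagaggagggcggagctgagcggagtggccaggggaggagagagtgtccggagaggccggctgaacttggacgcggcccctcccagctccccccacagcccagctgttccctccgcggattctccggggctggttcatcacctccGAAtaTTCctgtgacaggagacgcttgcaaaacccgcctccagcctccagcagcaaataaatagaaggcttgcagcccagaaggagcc

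The DNAJ genes went in both directions. DNAJB6, whose product suppresses aggregation of polyglutamine proteins, was the gene that fell. Its probe set 209015_s_at read -0.25, -0.21 and -0.40 on the myocilin arrays, against 0.14, 0.32 and 0 on the control arrays. The lines did not overlap, and the difference was -0.44 ± 0.10 (log2, SE), 1.36-fold lower in the myocilin line (adjusted p = 0.0181). The probe set call was lost without myocilin array 1, myocilin array 3 or control array 2 (adjusted p up to 0.0654). A pair of other probe sets, annotated jointly to TMEM135 and DNAJB6, gave 0.17 and 0.03 and did not pass, so the fall was not seen on every probe set that names this gene. Its window holds a longer element at 131 to 119 bases before the start.
DNAJB6 (chr7:157336754-157337003, plus strand): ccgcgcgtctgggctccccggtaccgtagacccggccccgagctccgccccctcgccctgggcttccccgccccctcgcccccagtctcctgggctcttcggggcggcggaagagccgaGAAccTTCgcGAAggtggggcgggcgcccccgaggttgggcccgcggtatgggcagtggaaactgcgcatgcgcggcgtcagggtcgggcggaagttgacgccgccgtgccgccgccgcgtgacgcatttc

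DNAJA2, a co-chaperone of constitutive HSP70, averaged 0.06, 0.15 and -0.07 over its 2 probe sets on the myocilin arrays, against -0.17, -0.20 and -0.19 on the control arrays. It passed in the gene fit (0.23 ± 0.07, log2, SE, adjusted p = 0.0438), not on either probe set (0.27 and 0.20). The gene call was lost without any 1 array other than myocilin array 3 (adjusted p up to 0.134), and it passed in 5 of 13 alternatives. DNAJA1 probe sets differed in sign, at -0.11 and 0.28, neither past the threshold. DNAJB1, the main heat-induced J protein of the cytosol, gave 0.02 on both of its probe sets, with a 95% interval of the gene mean of -0.13 to 0.18. DNAJB4 gave -0.20 and -0.14 without overlap of its gene means (adjusted p = 0.0741 in the gene fit). DNAJA4, DNAJB2 and DNAJB5 ran from -0.06 to 0.18 over 7 probe sets and none passed. In all, 10 of 16 DNAJ probe sets lay above 0 and the class median over genes was 0.05.

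In the BAG family BAG2 and BAG3 rose, BAG1 fell and BAG4 and BAG5 did not pass. BAG3, a stress-induced HSP70 partner in selective autophagy, has a single probe set, which read 0.43, 0.53 and 0.32 on the myocilin arrays, against -0.44, -0.42 and -0.21 on the control arrays. The lines were well apart. The difference was 0.78 ± 0.09 (log2, SE), or 1.72-fold (adjusted p = 0.00086), and 0.747% of all probe sets differed by more. It passed in all 10 alternatives that tested it (0.73 to 0.85), of which median centring repeats the main fit. BAG2, which inhibits the ubiquitin ligase CHIP on HSP70, read 0.53, 0.56 and 0.47 at probe set 209406_at, against -0.07, -0.17 and 0 in the control line. Each line was tight there, and the difference was 0.60 ± 0.07 (log2, SE), or 1.52-fold (adjusted p = 0.00135). Its other probe set, 230879_at, gave 0.22 ± 0.16 and did not pass, with control array 2 at -0.47 beside 0.24 and 0.16. The gene mean of BAG2 (0.41 ± 0.10, adjusted p = 0.0258) was lost without any 1 of the myocilin arrays (adjusted p up to 0.075).

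BAG1, which couples HSP70 to the proteasome and carries a ubiquitin-like domain, fell. Probe set 211475_s_at read -0.35, -0.21 and -0.24 on the myocilin arrays, against 0.17, 0.10 and 0.11 on the control arrays. Probe set 202387_at read -0.19, -0.29 and -0.31, against 0.13, -0.06 and 0.14. No myocilin array reached any control array on either, with differences of -0.39 ± 0.07 (adjusted p = 0.00901) and -0.33 ± 0.08 (log2, SE, adjusted p = 0.0277), while 229720_at gave -0.21 ± 0.09 and did not pass. The call on 202387_at was lost without any 1 array other than control array 2 (adjusted p up to 0.0912), and that on 211475_s_at was not lost. BAG4, also known as silencer of death domains, gave 0.09 to 0.19 over 3 probe sets, and BAG5, which carries several BAG domains, gave -0.23 to 0.17, none past the threshold. No exact match of either form was found in the window of BAG3, which is shown because it had the largest gene-level rise among the members. Imperfect or more distant elements of BAG3 were not looked for.
BAG3 (chr10:119651130-119651379, plus strand): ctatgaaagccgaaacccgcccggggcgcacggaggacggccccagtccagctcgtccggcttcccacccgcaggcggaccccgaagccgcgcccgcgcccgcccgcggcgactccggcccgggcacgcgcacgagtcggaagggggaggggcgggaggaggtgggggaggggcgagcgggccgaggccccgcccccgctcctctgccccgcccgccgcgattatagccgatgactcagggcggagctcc

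**Figure D2:**
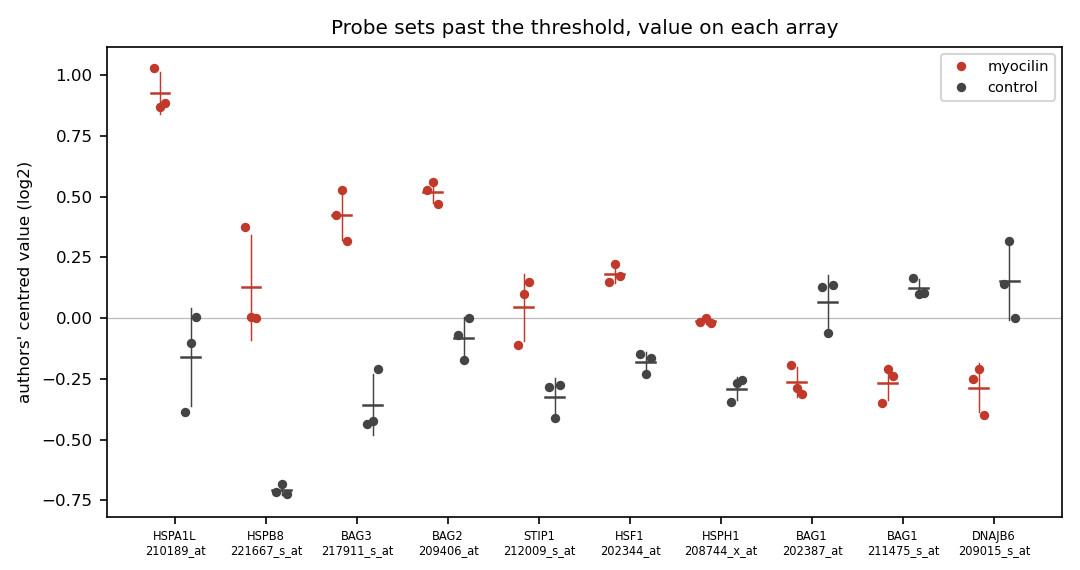
The authors' centred log2 value on each array for the 10 chaperone probe sets past the threshold, myocilin arrays in red and control arrays in dark grey, with the mean as a horizontal bar and 1 SD as a vertical line (n = 3 each). The lines do not overlap on any of the 10, which were picked by that threshold, and do not overlap on 30.4% of all probe sets. HSPB8 shows the low, tight control arrays at -0.71, -0.68 and -0.73.

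Of the co-chaperones, STIP1, the adaptor that passes clients from HSP70 to HSP90, rose. Probe set 212009_s_at read -0.11, 0.099 and 0.15 on the myocilin arrays, against -0.28, -0.41 and -0.28 on the control arrays. The lines did not overlap, and the difference was 0.37 ± 0.09 (log2, SE, adjusted p = 0.0256); the second probe set gave 0.25 ± 0.07 (adjusted p = 0.0513) and the gene mean 0.31 ± 0.07 (adjusted p = 0.0135). The probe set call was lost without any 1 array other than myocilin array 1 (adjusted p up to 0.0869), and the gene call without myocilin array 2 (adjusted p = 0.0513). CHORDC1, an HSP90 partner also called morgana, gave 0.30 ± 0.10 and 0.13 ± 0.10 (log2, SE) and a gene mean of 0.21 that did not pass (adjusted p = 0.0891) except without control array 2 (0.28, adjusted p = 0.0466). Its window carries the most elements of any member, 6 short ones, of which those between 60 and 38 bases before the start join into 3 overlapping longer ones. FKBP4, an immunophilin of steroid receptor complexes with HSP90, ranged from -0.09 to 0.25 over 4 probe sets and did not pass.
CHORDC1 (chr11:90223050-90223299, minus strand): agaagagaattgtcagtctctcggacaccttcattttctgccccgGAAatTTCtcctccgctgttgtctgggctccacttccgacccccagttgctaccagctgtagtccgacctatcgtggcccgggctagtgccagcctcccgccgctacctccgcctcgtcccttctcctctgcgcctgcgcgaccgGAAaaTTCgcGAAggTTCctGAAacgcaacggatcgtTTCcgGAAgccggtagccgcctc

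The mitochondrial chaperonin genes HSPD1 and HSPE1, which are transcribed divergently from neighbouring starts, did not pass the threshold. The 5 HSPD1 probe sets gave -0.24 to 0.0013, and HSPE1 gave 0.05 ± 0.12 (log2, SE). The differences of the gene means had 95% intervals of -0.23 to 0.04 and -0.22 to 0.32.

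HSF1, the factor that drives the heat shock response, rose on 1 of its 2 probe sets. Probe set 202344_at read 0.15, 0.22 and 0.17 on the myocilin arrays, against -0.15, -0.23 and -0.17 on the control arrays. Both lines were tight, and the difference was 0.36 ± 0.07 (log2, SE), or 1.29-fold (adjusted p = 0.00996), past the threshold in all 11 alternatives that tested it. Probe set 213756_s_at gave 0.07 ± 0.12 (log2, SE, adjusted p = 0.755), and the gene mean of 0.22 ± 0.07 did not pass (adjusted p = 0.0683).

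Several rising genes lie on chromosomes whose genes were higher as a whole in the myocilin line. The median difference over all genes was 0.11 on chromosome 10, which carries BAG3, 0.09 on chromosome 6, which carries HSPA1L, BAG2 and HSP90AB1, and 0.14 on chromosome 16, which carries DNAJA2. The following values are gene means, and that of HSPA1L over its 2 probe sets was 0.58 ± 0.07 (log2, SE, adjusted p = 0.00112). With the median of the 50 nearest genes subtracted, HSPA1L was higher by 0.45 ± 0.06 (adjusted p = 0.00267). BAG3, with 1 probe set, was higher by 0.65 ± 0.08 (adjusted p = 0.00119) after subtraction and by 0.78 before it. HSPB8, HSPH1, STIP1 and HSPA4L kept their calls, at 0.40, 0.31, 0.31 and 0.23 after subtraction and 0.40, 0.29, 0.31 and 0.21 before it. After subtraction HSP90AB1 at 0.07 (adjusted p = 0.492), DNAJA2 at 0.12 (adjusted p = 0.254) and BAG2 at 0.37 (adjusted p = 0.0538) no longer passed, against 0.19, 0.23 and 0.41 before it. BAG1 at -0.39 and DNAJB6 at -0.46 remained lower, against -0.31 and -0.44 before subtraction. The part of the chromosomal shifts in these results was not tested further.

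**Figure D3:**
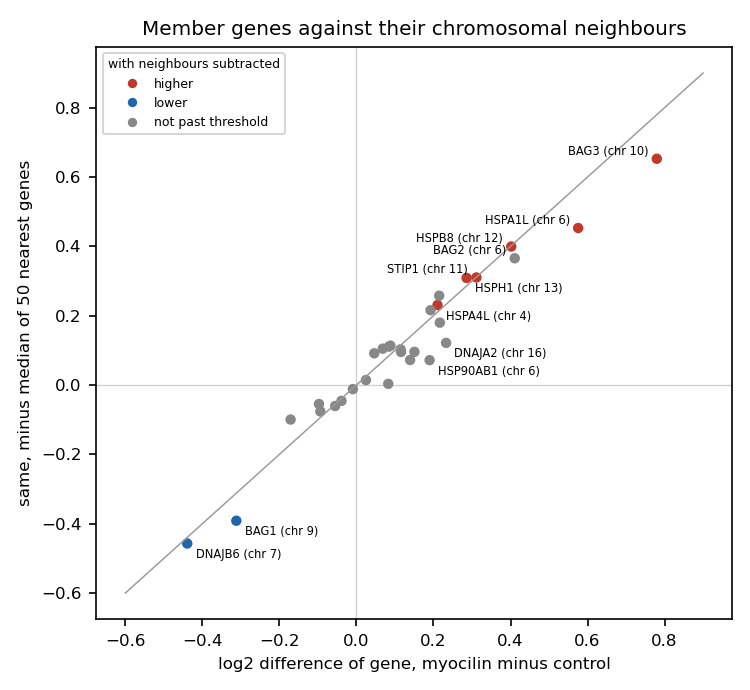
Log2 difference (myocilin minus control) of each of the 30 member genes on the horizontal axis and the same difference after subtraction of the median of its 50 nearest genes on the vertical axis; the line marks equal values and colours give the call after subtraction. BAG3 and HSPA1L lie below the line at 0.65 and 0.45 and kept their calls, while HSP90AB1 and DNAJA2 at 0.07 and 0.12 did not.

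Of 67 other listed genes of protein folding, 62 were measured, and 8 rose and 5 fell, or 21% against 15.6% of all genes, with a median of 0.05. These lists too were chosen with earlier results of these data known. The share called ran from 0% for CCT and prefoldin to 50% for mitochondrial chaperones and proteases, and no difference between lists was tested. The chaperonin CCT, which folds actin and tubulin, had 0 calls among 7 subunits (-0.06 to 0.17), and prefoldin, which hands clients to it, had 0 among 5 (-0.14 to 0.10). Among 11 other HSP90 co-chaperones, STUB1, the gene of the ligase CHIP that BAG2 inhibits, rose by 0.29 ± 0.05 (log2, SE, adjusted p = 0.00764), and UNC45A, a myosin chaperone, fell by 0.21 (adjusted p = 0.0375). UNC45A passed in the gene fit only, with limma adjusted p of 0.0814 and 0.152 on its 2 probe sets. STUB1 lies on chromosome 16. Of 13 other HSP70 and DNAJ partners 3 rose and 0 fell: HSPA14, a ribosome-associated HSP70, by 0.38 ± 0.06 (adjusted p = 0.00411), BAG6, which guards exposed hydrophobic segments, by 0.31 ± 0.06 (adjusted p = 0.00603), and DNAJC7 by 0.29 ± 0.07 (adjusted p = 0.0251). HSPA14 lies on chromosome 10 and BAG6 on chromosome 6.

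Of 8 mitochondrial chaperones and proteases, 3 fell and 1 rose. LONP1, a matrix protease, read -0.02, -0.05 and -0.01 on the myocilin arrays, against 0.15, 0.40 and 0.26 on the control arrays, a difference of -0.30 ± 0.07 (log2, SE, adjusted p = 0.0208). The protease gene CLPP differed by -0.22 and the exchange factor gene GRPEL2 by -0.33, while the mitochondrial J protein gene DNAJA3 rose by 0.20. CLPP and DNAJA3 passed in the gene fit only. Their probe sets had limma adjusted p of 0.0805 for CLPP and 0.0718 and 0.117 for DNAJA3. Among 6 other small HSPs, CRYAA rose by 0.34 ± 0.09 (adjusted p = 0.034) in the gene fit only. Its single probe set did not pass in the probe set fit (limma adjusted p = 0.0532). Among 4 other HSF genes and partners, HSBP1, which encodes a protein that binds HSF1 trimers and dampens them, rose by 0.27 ± 0.06 (adjusted p = 0.011). Of 8 other genes reported as HSF1 targets, ZFAND2A rose by 0.29 (adjusted p = 0.0395) and SERPINH1, the collagen chaperone of the endoplasmic reticulum, fell by 0.30 (adjusted p = 0.0207). The single probe set of ZFAND2A did not pass in the probe set fit (limma adjusted p = 0.0678). The 8 rises became 4 without myocilin array 1, 5 without myocilin array 2, myocilin array 3 or control array 2, and 2 with chromosomal neighbours subtracted. The 5 falls became 0 without myocilin array 2 or control array 2, 1 without myocilin array 1, 2 without control array 1 or 3, and 3 without myocilin array 3. Calls over all genes also became fewer with 1 array left out, at 833 to 1125 higher and 780 to 1095 lower, against 1519 and 1347. DNAJA3 and HSBP1 lie on chromosome 16.

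**Figure D4:**
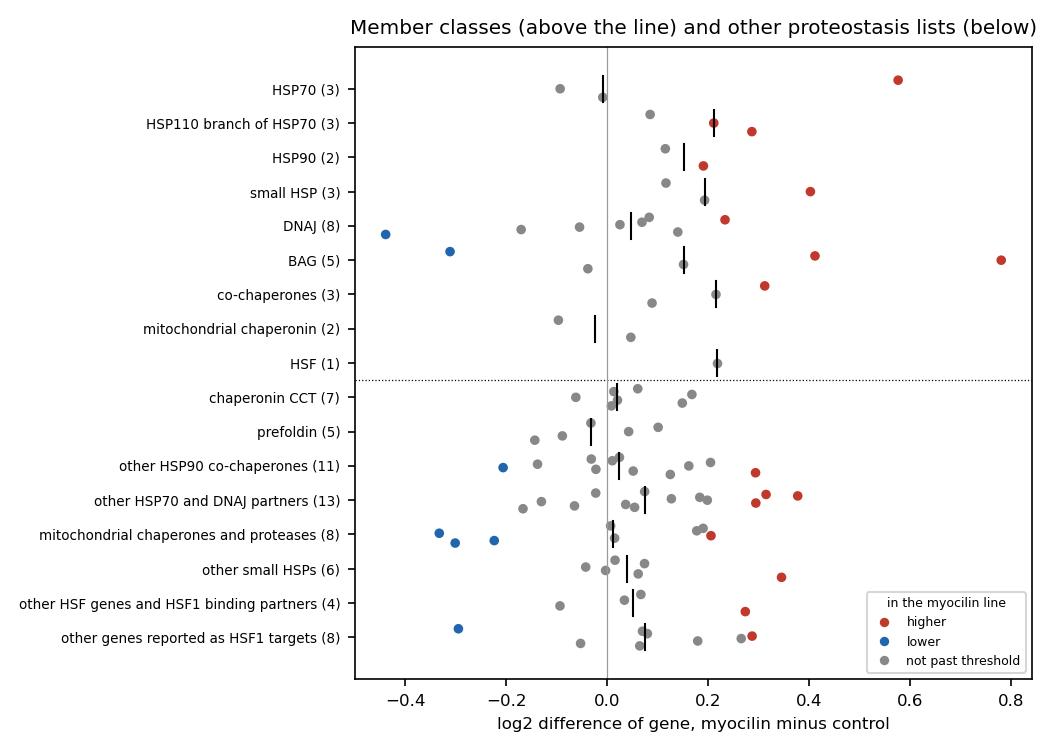
Log2 difference (myocilin minus control) of each gene, in rows for the 9 member classes above the dotted line and the 8 other lists below it, with the number of measured genes in brackets and the median of each row as a black bar; red and blue mark genes past the threshold and higher or lower. The BAG row spans -0.31 to 0.78, and the CCT row stays between -0.06 and 0.17.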

How the data were processed

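Total RNA of 6 biotin-labelled HG-U133 Plus 2.0 arrays was analysed from 1 table of log2 values that the authors deposited. The log base is inferred from the values, and no source used here gives the steps before deposit. The median is 0 on every array, and probe sets appear to have been centred on some level other than their median over these arrays, so dim probe sets could not be filtered. Arrays were grouped by source name. Title numbers run 1 to 3 for control and 7 to 9 for myocilin, and what they stand for is not stated. If they follow an order of handling, that order and line cannot be told apart. Of 41751 probe sets, 37460 were annotated to 1 gene, of which 37416 matched RefSeq of GRCh38.p14 by Entrez identifier, 1728 to several and 2563 were not listed. Probe sets of 1 gene were averaged.

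Lines were compared with limma 3.58.1 (lmFit, eBayes, two-sided) in R 4.3.3 over all probe sets and, separately, all 18338 genes, with Benjamini-Hochberg adjustment at 0.05; differences are myocilin minus control. The fit was tested on simulated data. Precision is limited by 3 arrays per line. Members and lists were chosen with earlier results of these data known. Named were MYOC, every member, and up to 4 called genes per other list. Alternatives were quantile normalisation, median centring, array weights, trend with robust fitting, omission of _x_at and _s_at probe sets, 1 probe set per gene, chromosomal neighbours subtracted, joint probe sets added and each array left out. Median centring left the values unchanged, because every array median was already 0, so it could not alter any call.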

Additional observations from a re-analysis of the deposited data

Results flagged for a closer look

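Outside the 67 probe sets, 3 probe sets annotated jointly to neighbouring HSP70 genes passed the threshold and were higher on the myocilin arrays than on the control arrays. Probe set 202581_at, assigned to HSPA1B and HSPA1A, read 1.04, 0.89 and 0.57 in the myocilin line, against -0.20, -0.17 and 0.21 in the control line, a difference of 0.89 ± 0.14 (log2, SE, limma adjusted p = 0.00388). Probe set 200800_s_at, assigned to HSPA1L, HSPA1B and HSPA1A, read 0.77, 0.71 and 0.58, against -0.19, -0.35 and 0.087, a difference of 0.84 ± 0.11 (adjusted p = 0.0018). Probe set 200799_at, assigned to HSPA1B and HSPA1A, read 0.36, 0.37 and 0.24, against -0.18, -0.34 and 0, a difference of 0.50 ± 0.09 (adjusted p = 0.0099). The lines did not overlap on any of these 3, and the transcripts of HSPA1A and HSPA1B cannot be told apart there. Groups of 3 arrays were not screened for single outlying values. The limma array quality weights in the gene fit were 1.69, 1.14 and 0.68 for myocilin arrays 1 to 3, against 0.90, 0.76 and 1.12 for control arrays 1 to 3.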

How the results depend on the processing

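No paired analysis was possible because the lines share no replicate number in the labels. With _x_at and _s_at probe sets omitted, 33 member probe sets were left, 3 higher and 1 lower, and 21 member genes, 3 higher and 1 lower. The called probe sets of HSPH1, HSPB8, BAG3, STIP1 and DNAJB6 and 211475_s_at of BAG1 have these endings and went untested there. Those of HSPA1L, BAG2 and HSF1 and 202387_at of BAG1 kept their calls. Among other proteostasis genes 3 were then higher and 2 lower, and over all genes 935 higher and 943 lower of 15545. With 1 array left out in turn, 5 to 8 member probe sets were higher and 1 to 2 lower. Of member genes 3 to 6 were higher and 2 lower in every case, and of other proteostasis genes 4 to 6 higher and 0 to 3 lower. Over all genes 833 to 1125 were then higher and 780 to 1095 lower, against 1519 and 1347 in the main fit. With 1 probe set per gene 3 other genes fell, and with neighbours subtracted 2 rose. Adding the 3 joint HSP70 probe sets gave 10 higher. The median over member genes kept its sign in all 13 settings, of which median centring and trend with robust fitting could not change it. Of the genes that changed sign, HSPB8 had been called (0.40 ± 0.08, adjusted p = 0.00973) and the others had not. HSPA6 read 0.016 with array weights and 0.017 with 1 probe set, and -0.061 to 0.029 with 1 array left out. Without _x_at and _s_at probe sets HSPB8 read -0.031 (adjusted p = 0.877), the alternative keeping only 233057_at, and HSPA4 read -0.22, DNAJA1 -0.11 and FKBP4 -0.092, these last 3 also with 1 probe set per gene. With 1 array left out HSPB1 read -0.0085 to 0.25, DNAJB1 -0.028 to 0.087 and HSPE1 -0.081 to 0.20, each lowest without control array 2, and BAG5 read -0.093 to 0.031, above 0 only without myocilin array 3. Causes were not tested. No detection call could be made on centred values, so a low probe set cannot be told from background.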
